A study of Homo sapiens with 6 samples.

Results

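The genes that carry farnesyl diphosphate away from the sterol pathway were examined in SW480, a human cell line from a colon adenocarcinoma. They were the 9 genes GGPS1, DHDDS, NUS1, PDSS1, PDSS2, COQ2, FNTA, FNTB and PGGT1B. They were taken by symbol from the deposited table, which held 20289 genes, and each symbol matched 1 row. All 9 passed the filter on low counts, which left 12920 genes for testing. mRNA was sequenced in 3 control libraries, LV-NC, labelled as wild type with no treatment, and 3 libraries labelled as overexpressing MUCP1 with a FLAG tag, MUCP1-FLAG. Both groups grew in L-15 with serum and antibiotics. Libraries within a group are labelled biological replicates, but no clone, culture day or transgene promoter is named, so p-values measure the spread between these libraries, which may be partly technical. In bulk RNA, fewer cells of a type and less RNA per cell cannot be told apart. The question was whether the higher transcript levels of the mevalonate pathway in MUCP1-FLAG cells extended to the genes past farnesyl diphosphate.

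The mevalonate pathway builds isoprenoid units from acetyl-CoA and joins them to farnesyl diphosphate, which FDPS makes. FDFT1 takes this compound to squalene and so to cholesterol. The nonsterol branches lengthen it or attach it to other molecules, giving geranylgeranyl diphosphate, dolichol for protein glycosylation, the side chain of ubiquinone, and the lipid anchors of Ras and Rab proteins. SREBP factors are known for raising transcription of the trunk and of the sterol branch when sterols are low.

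Library totals ran from 17333329 to 23282604 counts. Pairs of libraries from 1 group were further apart than sampling noise (chi-square over degrees of freedom 2.58 to 8.22). MUCP1 is not among the symbols of the table, and its overexpression was not checked here. Of 10 markers of colon epithelium 7 were tested, and the summed level of the list was 6473 to 7087 CPM (counts scaled to library size) in the controls and 6842 to 7049 CPM with MUCP1-FLAG. KRT20 and CEACAM5 had at most 3 counts in any library and CDX1 had none. In MUCP1-FLAG the epithelial adhesion genes EPCAM and CDH1 and the villus protein gene VIL1 were lower and the keratin gene KRT19 was higher; the part of these changes in the results below was not tested. Markers of fibroblasts, blood cells and endothelium summed to at most 1.20, 1.42 and 4.21 CPM in any library, and COL1A2, COL3A1, DCN, PTPRC, PECAM1, CDH5 and KDR had no count.

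The sequence before the start sites is shown for a pair of trunk genes that rose and for 3 nonsterol genes that were not called. Of 8 trunk genes 7 rose and of the 9 nonsterol genes 1, PDSS1, against 8.35% of all tested genes. Any link between these sequences and the changes was not tested. PDSS2 is shown as a stretch with no marked letters, since its CCAAT match, counted below, lies after the start. The sequences are from RefSeq on GRCh38.p14, within the 250 bases before the first listed start, without bases inside a GENCODE 29 exon. FDPS lies at chr1:155308616-155308747 (+ strand), HMGCS1 at chr5:43313513-43313662 (− strand), DHDDS at chr1:26432071-26432281 (+ strand), NUS1 at chr6:117675219-117675468 (+ strand) and PDSS2 at chr6:107459565-107459814 (− strand). Capitals mark CCAAT, the box bound by NF-Y, a factor that acts with SREBP, in either orientation (CCAAT or ATTGG), and CACGTG, an E-box.
FDPS: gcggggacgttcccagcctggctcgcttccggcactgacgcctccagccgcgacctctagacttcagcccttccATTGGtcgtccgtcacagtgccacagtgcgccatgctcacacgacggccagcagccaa
HMGCS1: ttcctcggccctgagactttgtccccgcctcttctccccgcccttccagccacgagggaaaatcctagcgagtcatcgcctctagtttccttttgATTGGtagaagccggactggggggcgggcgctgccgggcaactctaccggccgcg
DHDDS: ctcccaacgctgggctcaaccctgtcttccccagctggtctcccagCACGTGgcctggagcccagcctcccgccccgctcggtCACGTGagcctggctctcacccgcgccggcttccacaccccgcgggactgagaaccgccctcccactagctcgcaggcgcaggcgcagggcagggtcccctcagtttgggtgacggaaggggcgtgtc
NUS1: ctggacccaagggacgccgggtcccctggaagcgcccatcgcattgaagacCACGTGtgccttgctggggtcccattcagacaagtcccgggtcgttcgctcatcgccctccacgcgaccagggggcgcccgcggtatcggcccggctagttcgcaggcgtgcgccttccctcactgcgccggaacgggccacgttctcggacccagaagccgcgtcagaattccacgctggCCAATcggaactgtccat
PDSS2: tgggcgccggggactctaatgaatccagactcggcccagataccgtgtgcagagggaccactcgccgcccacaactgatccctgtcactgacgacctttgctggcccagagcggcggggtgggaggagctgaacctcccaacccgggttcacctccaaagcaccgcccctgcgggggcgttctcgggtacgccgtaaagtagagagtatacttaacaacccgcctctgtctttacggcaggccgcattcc

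Of the 9 genes, 8 matched the table of promoters, which runs from 250 bases before to 50 after each start. On either strand CCAAT occurred for 5 of these 8 genes, for 5 of 6 matched trunk genes and for 8 of 9 matched genes of the squalene and sterol branch, against 39.7% of 27305 genes. A gene was counted when any of its listed windows held the letters. FDPS held 3 matches and HMGCS1 held 2 at its first start, and the stretch above shows 1 for each. Further matches were counted for trunk genes: the mevalonate kinase gene MVK held 5 and MVD held 3. IDI1 held 3 and 2 in separate windows and none in another. Of the nonsterol genes COQ2 held 2, and NUS1, FNTB, PDSS2 and GGPS1 held 1 each, while DHDDS, PDSS1 and PGGT1B held none. The trunk gene PMVK, which did not rise, and the sterol gene CYP51A1, which rose by 1.16 on the log2 scale, also held none. CACGTG occurred for DHDDS, with 2 matches at 204 and 167 bases before the start, and for NUS1, with 1 match. It thus occurred for 2 of 8 nonsterol genes, 2 of 9 sterol genes and 0 of 6 trunk genes, against 8.77% of all genes. TCACNCCAC, a form of the sterol response element, was found in none of the windows of the 3 groups and for 1.39% of all genes. With so low a share, finding none among so few genes cannot set them apart from other genes, and other forms were not searched. These matches are letters in a window and not sites.

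Of the 9 genes, 1 rose in MUCP1-FLAG cells and none fell. PDSS1, a subunit of the enzyme that makes the ubiquinone side chain, was 1.24-fold higher, while the trunk genes had a median of 2.93-fold. The test was edgeR's quasi-likelihood F test on the deposited counts, with an adjusted p under 0.05 over all tested genes as the threshold. At that threshold 16.1% of all tested genes were called, 8.35% higher and 7.71% lower, so 1 of 9 is a share near the background. At an unadjusted p under 0.05 the number among the 9 was 4, against 29.4% of all tested genes. Their median log2 fold change was 0.05, against −0.0042 for all tested genes, with 6 positive and 3 negative.

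**Figure D1:**
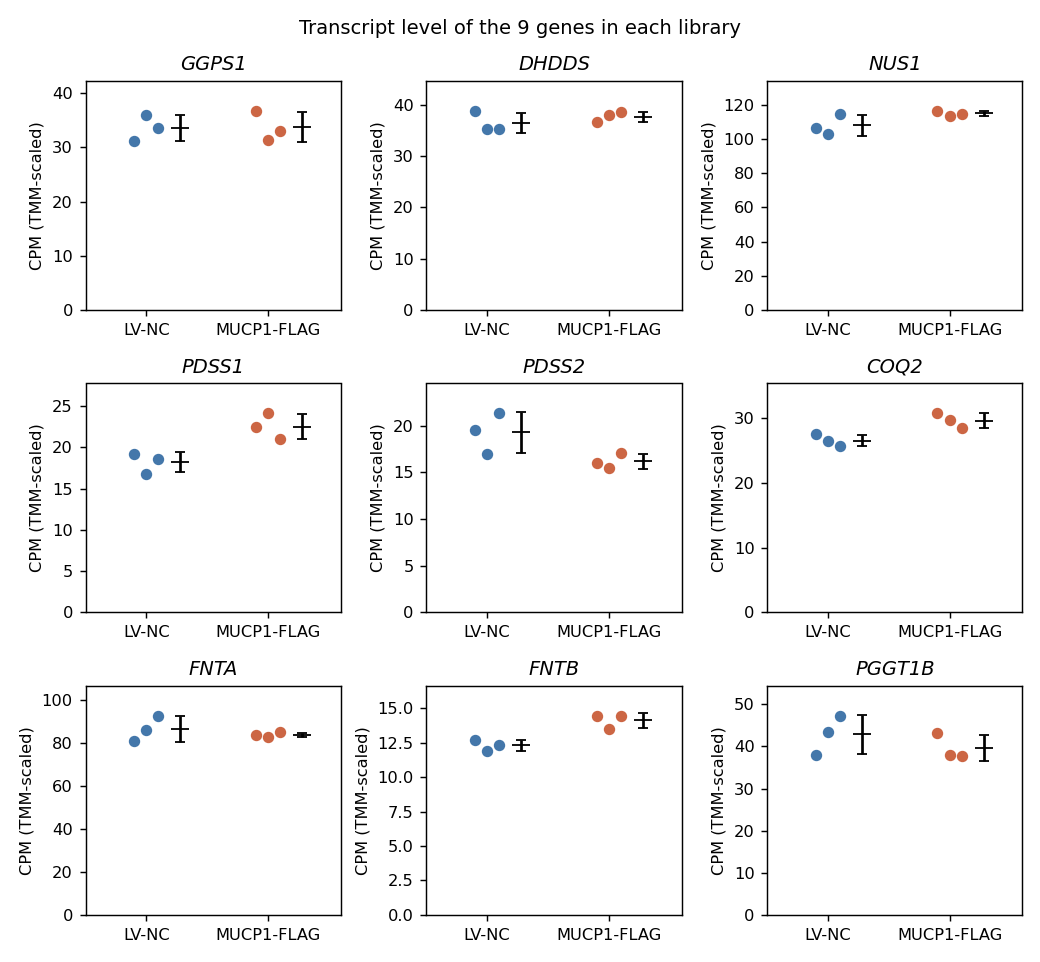
Transcript level of each of the 9 genes in CPM (vertical axis, from 0) in the 3 LV-NC and 3 MUCP1-FLAG libraries. Points are libraries, and the bar and whiskers beside them are the mean and SD. The groups lie apart for PDSS1, COQ2 and FNTB and overlap for the other 6 genes.

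Geranylgeranyl diphosphate synthase, GGPS1, adds 1 isoprenoid unit to farnesyl diphosphate and feeds the prenylation of Rab proteins. Its level was 31.3, 35.9 and 33.6 CPM in LV-NC, against 36.8, 31.3 and 33.0 CPM in MUCP1-FLAG. The groups overlapped across nearly their whole range. The log2 fold change was 0.000099 ± 0.08 (standard error, edgeR adjusted p 0.999), and its 95% interval ran from −0.16 to 0.16, that is, from a fall of 10.6% to a rise of 11.8%. GGPS1 (ENSG00000152904) lies on chromosome 1 at 235327350 to 235344532, and 41.0% of its exon bases in GENCODE 29 are also exon of another gene. TBCE, on the same strand, covers most of these and had 48 to 150 counts per library, and ARID4B, on the opposite strand, covers 138. The level of GGPS1 is uncertain, since the rule for reads in such bases is not given.

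DHDDS and NUS1 encode the catalytic and the partner subunit of the cis-prenyltransferase in the endoplasmic reticulum, which makes the long chain of dolichol. DHDDS stood at 38.8, 35.3 and 35.4 CPM in the 3 controls and at 36.6, 38.0 and 38.6 CPM in MUCP1-FLAG. NUS1 stood at 106, 103 and 115 CPM in the 3 controls and at 116, 113 and 115 CPM in MUCP1-FLAG. For both subunits the highest LV-NC library lay inside or above the range of MUCP1-FLAG. Neither passed the test: on the log2 scale DHDDS differed by 0.05 ± 0.07 (edgeR adjusted p 0.684) and NUS1 by 0.09 ± 0.05 (0.275). The 95% intervals ended at 0.19 and 0.20. NUS1 was the closest to the threshold without LV-NC replicate 3, with an edgeR adjusted p of 0.0517. DHDDS (ENSG00000117682) lies on chromosome 1 at 26432282 to 26471294 and NUS1 (ENSG00000153989) on chromosome 6 at 117675502 to 117710640, and neither shares exon bases with another gene. The deposited FPKM values, which also allow for gene length, gave DHDDS the other sign, with a mean of 23.4 in LV-NC, against 22.9 in MUCP1-FLAG. The length implied by its counts and FPKM varied by 8.41% (coefficient of variation) between libraries, against 0.0107% for NUS1.

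The ubiquinone branch held the single called gene. PDSS1 and PDSS2 form the mitochondrial polyprenyl diphosphate synthase, and COQ2 joins its product to the ring precursor. PDSS1 was at 19.2, 16.8 and 18.6 CPM in the 3 controls and at 22.4, 24.1 and 21.0 CPM in MUCP1-FLAG. Each MUCP1-FLAG library lay above each LV-NC library. The means were 18.2 ± 1.23 and 22.5 ± 1.55 CPM (SD, n = 3 per group), with a log2 fold change of 0.31 ± 0.09 and an edgeR adjusted p of 0.0151. The call was lost under 4 of 15 alternatives. The adjusted p was 0.0596 and 0.0566 with limma on log2(FPKM + 1) and log2(FPKM + 0.1), 0.109 when LV-NC replicate 2 was left out and 0.106 when this was MUCP1-FLAG replicate 2, with log2 fold changes of 0.26 to 0.29. In the authors' deposited table PDSS1 had an adjusted p of 0.0526. PDSS1 (ENSG00000148459) lies on chromosome 10 at 26697659 to 26746798, and 206 of its exon bases, 10.5%, are exon of ABI1 on the opposite strand, whose own log2 fold change was −0.0040 ± 0.07.

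PDSS2, the partner subunit, had a lower mean in MUCP1-FLAG and was not called. It was at 19.6, 17.0 and 21.3 CPM in the 3 controls and at 16.0, 15.4 and 17.1 CPM in MUCP1-FLAG. LV-NC replicate 2, the lowest of its group, lay just under the highest MUCP1-FLAG library, so the groups overlapped. The log2 fold change was −0.25 ± 0.09, with a 95% interval from −0.45 to −0.06, and it did not pass the threshold after adjustment (edgeR adjusted p 0.0734, unadjusted p 0.014). Without LV-NC replicate 2 the adjusted p was 0.0354 and the log2 fold change −0.34. PDSS2 (ENSG00000164494) lies on chromosome 6 at 107152557 to 107459564 with no exon base shared. Per library, the FPKM of PDSS1 was 1.86, 1.99 and 1.71 times that of PDSS2 in LV-NC, against 2.90, 3.08 and 2.51 times as high in MUCP1-FLAG. This ratio lay apart between the groups, with means of 1.85 ± 0.14 and 2.83 ± 0.29 (SD, n = 3 per group). It was chosen after the values of both genes were seen and was not tested.

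COQ2 (ENSG00000173085, chromosome 4 at 83261536 to 83284914) was at 27.5, 26.5 and 25.8 CPM in the 3 controls and at 30.8, 29.8 and 28.5 CPM in MUCP1-FLAG. The groups did not overlap, but the difference did not pass the threshold (log2 fold change 0.16 ± 0.07, edgeR adjusted p 0.15). Where 8.35% of all tested genes were called higher and 7.71% lower, the 11 genes of the ubiquinone ring held no call in either direction. These genes, which build or handle the ring, were COQ3 to COQ9, COQ10A, COQ10B and HPDL. Their log2 fold changes ran from −0.38 for HPDL, a dioxygenase-like gene of the ring precursor (edgeR adjusted p 0.0685), to 0.19 for the hydroxylase gene COQ7 (0.178). Their median was −0.0041.

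Protein prenylation was read from 3 subunit genes. FNTA encodes the alpha subunit shared by farnesyltransferase and geranylgeranyl transferase I, FNTB the beta subunit of the former and PGGT1B that of the latter. FNTA was at 80.9, 85.9 and 92.7 CPM in the 3 controls and at 83.5, 83.0 and 84.9 CPM in MUCP1-FLAG, so that the MUCP1-FLAG values lay inside the LV-NC range. FNTB was at 12.7, 11.9 and 12.4 CPM in the 3 controls and at 14.4, 13.5 and 14.5 CPM in MUCP1-FLAG. PGGT1B was at 37.9, 43.4 and 47.3 CPM in the 3 controls and at 43.2, 37.9 and 37.8 CPM in MUCP1-FLAG. FNTB was thus higher in every MUCP1-FLAG library than in any LV-NC library, and PGGT1B overlapped. None passed the test, with log2 fold changes of −0.04 ± 0.06 for FNTA (edgeR adjusted p 0.653), 0.20 ± 0.09 for FNTB (0.161) and −0.11 ± 0.08 for PGGT1B (0.368). FNTB (ENSG00000257365) lies on chromosome 14 at 64986720 to 65062652 and shares 42.1% of its exon bases with the readthrough gene CHURC1-FNTB, which is listed at 0 counts in every library, so its level is uncertain too. PGGT1B (ENSG00000164219) lies on chromosome 5 at 115204012 to 115262872. FNTA is ENSG00000168522.

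With PDSS1 and COQ2, FNTB made 3 of 9 genes whose groups did not overlap, and all 3 were higher. Over all tested genes the groups did not overlap for 33.1%, with 16.6% higher and 16.4% lower, so 3 of 9 equalled the background share for both directions together, and all 3 lay on the higher side.

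The range of levels among the 9 genes was wider than the difference between groups for any of them. On the FPKM scale FNTA was the highest, at 47.0 ± 3.23 in LV-NC (SD, n = 3), and FNTB the lowest, at 4.57 ± 0.15. The order in LV-NC was FNTA, DHDDS, NUS1, GGPS1, COQ2, PDSS1, PGGT1B, PDSS2 and FNTB. Of these neighbours DHDDS and NUS1, GGPS1 and COQ2, and PDSS1 and PGGT1B had overlapping ranges. In MUCP1-FLAG the order changed at 2 places, where NUS1 stood above DHDDS and FNTB above PDSS2, and in both places the ranges overlapped. PDSS1 and PGGT1B, which overlapped in LV-NC, stood apart in MUCP1-FLAG, at 14.2 ± 0.86 and 9.44 ± 1.08 FPKM. The beta subunits stood far below the shared alpha subunit: the FPKM of FNTB was 0.0914 to 0.106 times that of FNTA in LV-NC, against 0.111 to 0.119 times with MUCP1-FLAG. For PGGT1B the same ratio was 0.209 to 0.226 and 0.188 to 0.233. The length implied by the counts and FPKM of PGGT1B varied by 5.51% (coefficient of variation) between libraries, which limits its rank and ratios on this scale. That of DHDDS varied by 8.41%, which limits its order with NUS1. The rank and ratios of FNTB are limited too, since 42.1% of its exon bases are shared with CHURC1-FNTB.

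**Figure D2:**
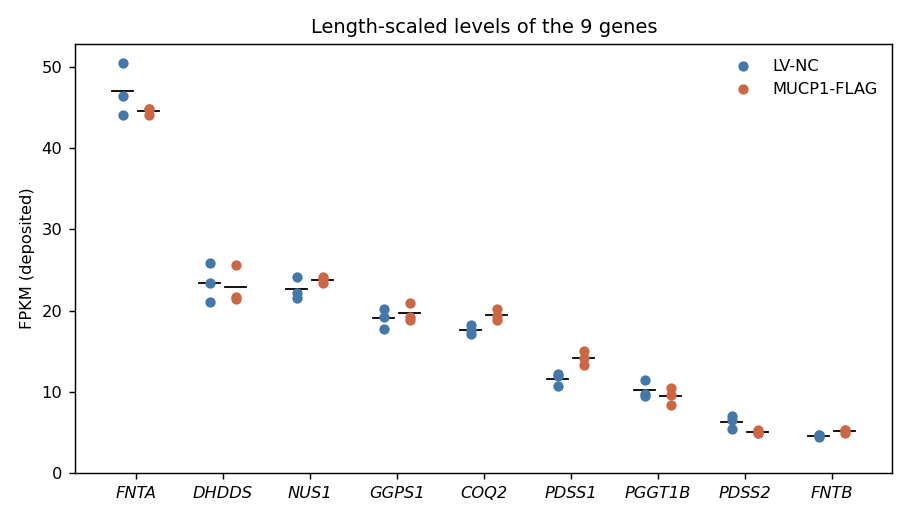
Deposited FPKM (vertical axis, from 0) of the 9 genes in the 6 libraries, in the order of their LV-NC means. Points are libraries and black lines are group means. FNTA stands near 47.0 and FNTB near 4.57 in LV-NC, and the groups of a gene lie closer together than the highest and the lowest gene.

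The contrast with the steps up to farnesyl diphosphate was large. Of 8 trunk genes 7 rose, against 8.35% of all tested genes. The log2 fold changes of these 7 ran from 0.997 for FDPS to 2.08 for the synthase gene HMGCS1. The decarboxylase gene MVD, ACAT2, IDI1 and MVK lay between 1.46 and 1.72. The phosphomevalonate kinase gene PMVK was at 0.02 ± 0.12 (edgeR adjusted p 0.938), with a 95% interval from −0.22 to 0.26. FDPS was at 94.7, 89.3 and 85.9 CPM in LV-NC, against 184, 169 and 186 CPM in MUCP1-FLAG, with groups far apart (0.997 ± 0.05, edgeR adjusted p 4.08e-11). All 12 genes of the squalene and sterol list rose too, with a median log2 fold change of 0.97. FDFT1, which competes with the nonsterol branches for farnesyl diphosphate, rose by 1.05 ± 0.07 (1.32e-09). The highest upper bound of the 9 nonsterol intervals was 0.49, for PDSS1, and the lower bound for FDPS was 0.88. Such a gap did not hold for every trunk and sterol gene. The interval of the sterol gene LSS ran from 0.37 to 0.66 and overlapped that of PDSS1, and that of PMVK ended at 0.26.

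**Figure D3:**
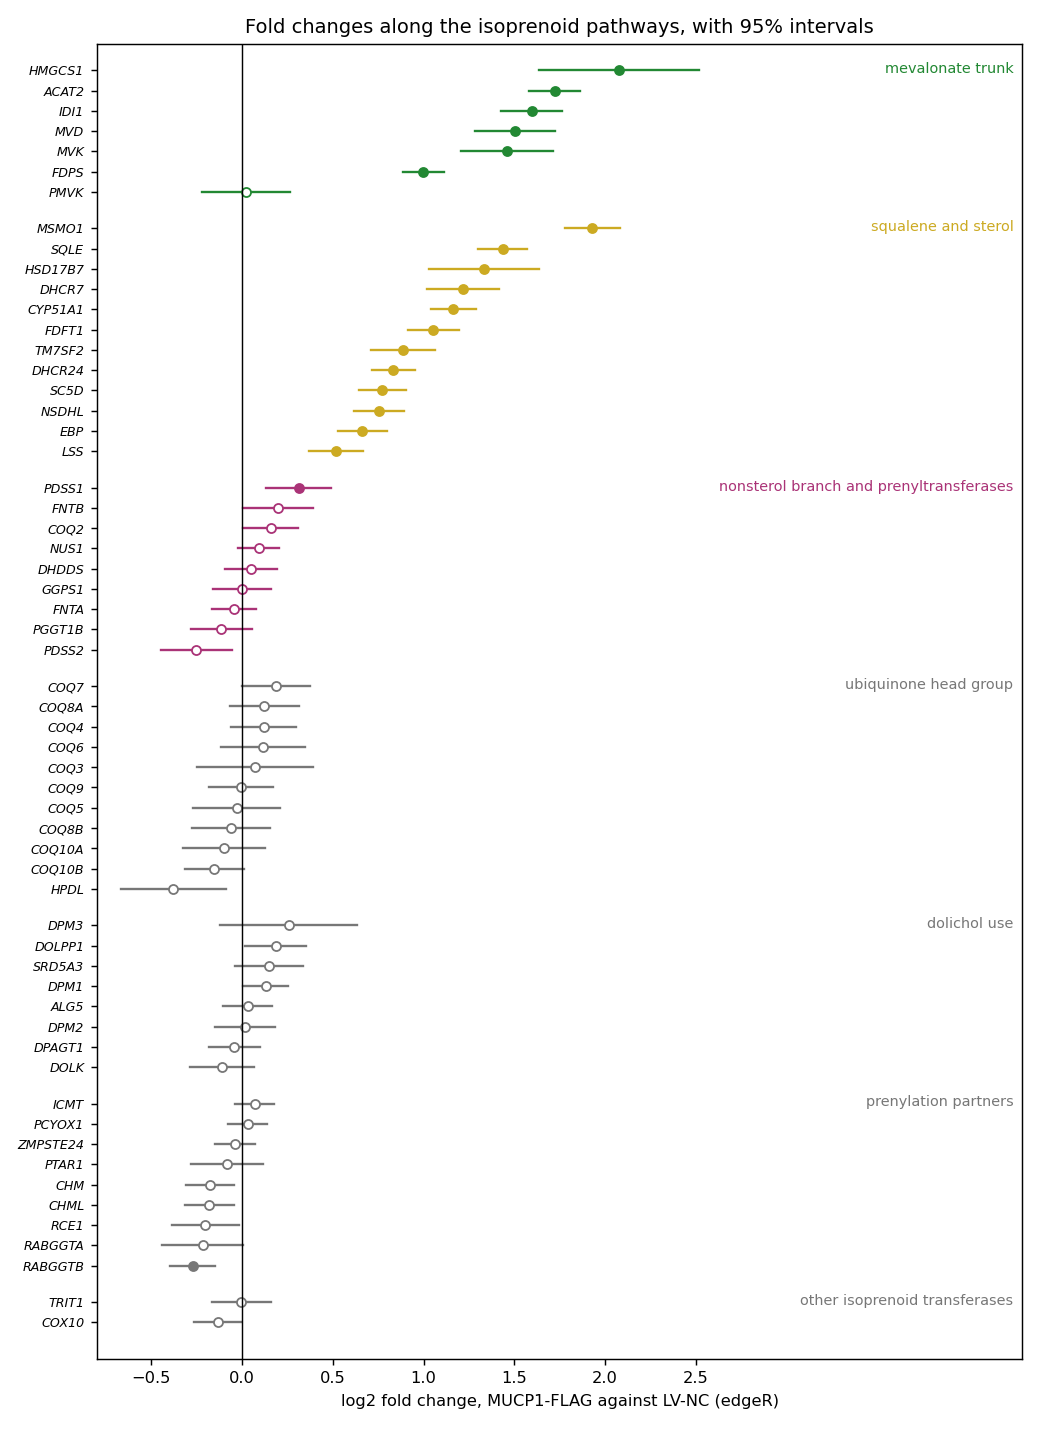
Log2 fold change of MUCP1-FLAG against LV-NC (horizontal axis) for genes of each list, with 95% intervals as lines; filled points have an edgeR adjusted p under 0.05. The trunk and sterol genes shown, other than PMVK, lie at 0.52 or above, while the 9 nonsterol genes lie between −0.25 and 0.31.

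Against FDPS in the same library, each of the 9 genes was lower in MUCP1-FLAG. The FPKM of GGPS1 was 23.0%, 28.1% and 27.2% of that of FDPS in LV-NC, against 14.0%, 14.0% and 12.8% in MUCP1-FLAG. That of PDSS1, the gene that rose, was 15.8%, 14.9% and 16.8% in LV-NC, against 9.47%, 11.1% and 8.82% in MUCP1-FLAG. For all 9 ratios the groups did not overlap. The log2 ratio fell by 0.70 for PDSS1, the smallest difference, and by 1.31 for PDSS2, the largest. A two-sided exact permutation test gave p = 0.1 for each of the 9 ratios, also after Benjamini-Hochberg adjustment, which is the smallest p that 3 against 3 libraries can give, so none could pass 0.05. The ratios share the FDPS values, are not independent, and restate the rise of FDPS beside the small differences of the 9 genes. FDFT1 stood at 40.1% ± 3.29 in LV-NC, against 40.3% ± 1.08 of FDPS in MUCP1-FLAG (SD, n = 3 per group), with overlapping groups.

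**Figure D4:**
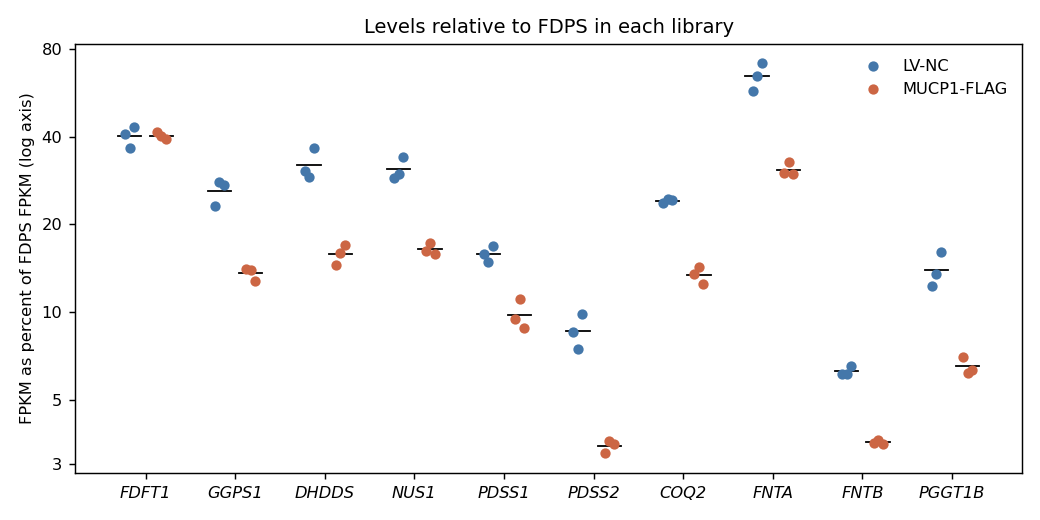
FPKM of each gene as a percentage of the FPKM of FDPS in the same library (vertical log axis), for FDFT1 and the 9 nonsterol genes. Points are libraries and lines are group means. The groups overlap for FDFT1 near 40.1% and lie apart for the other 9 genes, all lower in MUCP1-FLAG.

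Further genes of the nonsterol branches were read from a list of 31 genes in 4 groups (the ubiquinone ring, dolichol use, the partners of protein prenylation, and other isoprenoid transferases). Of these none rose and 1 fell, against 8.35% and 7.71% of all tested genes, and the median was −0.0054 on the log2 scale. Among 8 genes of dolichol use, which form or recycle dolichol and load it with sugars, none passed the test, and the values ran from −0.11 for the dolichol kinase gene DOLK to 0.26 for DPM3. Of the other transferases, COX10 and TRIT1, which modify heme and tRNA, had −0.13 and −0.0054.

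The 1 gene that fell was RABGGTB, the beta subunit of the Rab geranylgeranyl transferase, which averaged 62.8 ± 2.45 CPM in the controls and 52.0 ± 1.43 CPM in the MUCP1-FLAG libraries (SD, n = 3 each). This was a log2 difference of −0.27 ± 0.06 (edgeR adjusted p 0.00276). Its partner subunit RABGGTA had −0.22 ± 0.11 (0.184) and the Rab escort protein genes CHM and CHML −0.18 ± 0.06 (0.0613) and −0.18 ± 0.07 (0.0645). These 4 genes and the CAAX protease gene RCE1 (−0.20 ± 0.09, 0.129) were lower in each MUCP1-FLAG library than in any LV-NC library. They were 5 of 9 genes in the list of prenylation partners, against 16.4% of all tested genes. Of the whole list of 31 genes 6 were lower without overlap and 2 higher, against 16.4% and 16.6%. For RABGGTA and CHML the gap was narrow. Their highest MUCP1-FLAG libraries stood at 16.2 and 50.1 CPM, and their lowest LV-NC libraries at 16.5 and 50.6 CPM. The protease gene ZMPSTE24, the methyltransferase gene ICMT and PCYOX1, which act after prenylation, had −0.04, 0.07 and 0.03. Beside PTAR1 (−0.08) these 3 overlapped between the groups. RABGGTA, CHM, CHML and RCE1 are named after their values were seen.

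Genes for proteins that carry these lipid anchors were called in both directions. Of 16 farnesylated proteins 3 rose and 3 fell, against 8.35% and 7.71% of all tested genes, and the median was 0.04 on the log2 scale. The lamin gene LMNB1 rose by 0.43 ± 0.05 (edgeR adjusted p 2.69e-06), the Ras gene HRAS by 0.34 ± 0.09 (0.0107) and the mTORC1 activator RHEB by 0.14 ± 0.04 (0.0381). The GTPase gene RND3 had −0.41 ± 0.06 (0.000143), and the phosphatase genes PTP4A1 and PTP4A3 −0.19 ± 0.05 (0.00638) and −0.34 ± 0.09 (0.00842). The Ras gene NRAS was at 0.05. The call of HRAS was lost without MUCP1-FLAG replicate 2 (0.0977) and with limma on log2(FPKM + 1) (0.0508), that of PTP4A1 without the second LV-NC library (0.0589) or the third MUCP1-FLAG library (0.0657), and that of RHEB on leaving out each library in turn (0.051 to 0.175), LV-NC replicate 3 excepted. RHEB was also not called with upper quartile scaling (0.0649) or with limma on either FPKM scale (0.119 and 0.122). Over all 15 alternatives the log2 fold change was 0.26 to 0.40 for HRAS, −0.21 to −0.17 for PTP4A1 and 0.11 to 0.16 for RHEB. Of 18 geranylgeranylated proteins RHOA alone rose (0.18 ± 0.04, 0.00494), and none fell. Its relatives RHOB, RAC1 and CDC42 were at 0.10, 0.05 and 0.10.

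The pathway column of the deposited table places 23 genes under terpenoid backbone biosynthesis. Of these 20 were tested and 9 were higher, against 8.35% of all tested genes. Of those 9, 7 belong to the trunk list, and the other two were PDSS1 and the thiolase gene ACAT1 (0.22). The 7 nonsterol genes that carry this annotation are GGPS1, DHDDS, NUS1, PDSS1, PDSS2, FNTA and FNTB.

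The genes whose levels followed PDSS1 most closely across the 6 libraries, among 11635 with a mean of at least 2 CPM, were PCLAF, NMRAL1 and NTAN1, with Pearson's r of log2 CPM of 0.995, 0.988 and 0.984. These r values are a description, since the libraries fall into the 2 groups. PCLAF, a PCNA-binding factor, rose by 0.35 ± 0.08 (edgeR adjusted p 0.00488) and NTAN1, an N-terminal amidase, by 0.39 ± 0.09 (0.00333), while NMRAL1 was at 0.19 ± 0.08 (0.0991). With limma on log2(FPKM + 1) PCLAF was not called (adjusted p 0.255).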

How the data were processed

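Per the labels' protocols, Trizol RNA went into a kit for mRNA libraries. The authors deposited whole-number counts and FPKM per gene. GRCh38, HISAT2, fastp, featureCounts and DESeq2 appear in the submitters' processing notes, with neither versions nor roles. Per the file headers the table also holds the authors' p-value, adjusted p-value and log2 fold change, from a test that the sources do not name.

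Counts were tested with edgeR 4.0.16 (R 4.3.3), using quasi-likelihood F tests (robust), TMM scaling, filterByExpr with its minimum count of 10, and Benjamini-Hochberg adjustment over 12920 genes. Standard errors are fold changes over the root of F, and intervals are at 95%. The procedure was also run on counts simulated from mean CPM over all libraries and its estimated dispersion trend, with set changes in some genes. This does not test whether that model suits the data. Alternatives used limma 3.58.1 on log2 FPKM, DESeq2 1.42.0, other scalings and filters, a replicate block and left-out libraries. Totals of 17333329 to 23282604 counts and 3 libraries per group limit the precision.

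The members, lists and rules were chosen with earlier results of these data known. Named were all 9 members, the trunk genes, FDFT1, called genes of the other lists, and the 3 genes most like PDSS1. Some genes counted in the lists are not reported here individually. Other genes named were chosen after their values were seen.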

Additional observations from a re-analysis of the deposited data

How the results depend on the processing

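PDSS1 was higher under each of 15 alternatives, with log2 fold changes of 0.26 to 0.36, and was called in 11. The number of the 9 genes called higher was 0 with limma on log2(FPKM + 1) and log2(FPKM + 0.1), and 0 to 1 without single libraries; the number called lower was 0 to 1. Values near 0 changed sign with no call: GGPS1 was at −0.00057 with DESeq2 size factors, −0.016 with upper quartile scaling, −0.0039 with at least 1 CPM in every library and −0.068 to 0.053 without single libraries, DHDDS at −0.032 and −0.033 with the FPKM scales, FNTA at −0.090 to 0.0070 and PMVK at −0.096 to 0.15 without single libraries. Over all tested genes 517 and 510 were higher and 553 and 543 lower with limma on log2(FPKM + 1) and log2(FPKM + 0.1); without single libraries the ranges were 639 to 1323 higher, lowest without MUCP1-FLAG replicate 3 and 671 without LV-NC replicate 2, and 624 to 1213 lower. The median of the trunk was 1.41 with log2(FPKM + 1). Of the other 31 nonsterol genes 3 were lower with upper quartile scaling and 2 with no low-count filter, and without single libraries 1 to 3 were lower and 0 to 1 higher; their median was −0.043 and −0.045 with the FPKM scales and −0.027 to 0.028 without single libraries. Of the farnesylated proteins 1 was higher with log2(FPKM + 1) and 1 to 4 without single libraries, with medians of 0.013 to 0.056; the geranylgeranylated median was 0.0031 and 0.0032 with the FPKM scales. The causes were not tested. The FDPS ratios ranged from −0.62 to −1.41 over 90 alternatives; each holds the rise of FDPS, so their common sign is no sign of stability.

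The labels do not say that a replicate number marks a shared culture or day. The deviations of same-numbered libraries correlated only weakly across genes, with r of 0.00239 to 0.0498. The 4 of 6 libraries that correlated best with their own number were those numbered 1 and 2. With the replicate block GGPS1 was at −0.00027, PDSS1 at 0.31 (edgeR adjusted p 0.0232), and RHEB lost its call (0.0531).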
